A study of Acipenser sinensis with 45 samples.

Results

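The 100 unigenes described here are those that stood highest in the pituitary of Chinese sturgeon (Acipenser sinensis) females in stage II of gonad development. A unigene is an assembled transcript sequence, and its level was given as FPKM, the number of sequenced fragments scaled to the length of the unigene and to the mapped fragments of the library. On the log2(FPKM + 1) scale, each of the 121952 unigenes was scored as its lowest value among the 3 female pituitary libraries minus the highest mean among the other 8 groups. The score was above 0 for 2897 unigenes (2.38%), and the 100 highest of these were taken. The choice used the measured levels, so the excess in the female pituitary is given as a description without a test.

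The 45 libraries came from 15 fish of an artificially bred population, each giving its hypothalamus, pituitary and gonad. Groups are named by fish and tissue. UH, UP and UG are the hypothalamus, pituitary and gonad of 6 stage I fish that were 1 year old and whose sex was not determined. MH, MP and MG are those of 6 stage II males, and FH, FP and FG those of 3 stage II females, both over 4 years old. No group received a treatment, and same-numbered libraries within a sex come from the same fish. Age differs between the stages together with gonad development, so these cannot be told apart. Male fish 4 carries tissue labels for its hypothalamus and pituitary that are the reverse of its sample codes. The tissues of the codes were kept, whose letters h and p match the paper's abbreviations for hypothalamus and pituitary. Across all unigenes, MH fish 4 correlated most with MH fish 2 (Pearson r 0.935 on log2(FPKM + 1)) and MP fish 4 with MP fish 2 (r 0.928).

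The pituitary lies below the hypothalamus and releases peptide hormones into the blood. Its anterior lobe makes growth hormone, prolactin, thyrotropin, corticotropin and the gonadotropins, which act on the ovary and testis. The hypothalamus controls this release through neuropeptides such as gonadotropin-releasing hormone, and axons of hypothalamic neurons end in the posterior lobe. In fish with stage II ovaries the oocytes are in primary growth, before yolk is laid down. The table pairs no unigene with a gene name, so neither the role of a member nor the presence of hormone transcripts that define a pituitary could be read from it.

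The female libraries did not form an even group. Female fish 2 and 3 were sequenced on the HiSeq 4000 with 100-nt reads, and female fish 1 and all other fish on the HiSeq 2000 with 90-nt reads. Across all unigenes the library of FP fish 1 correlated most with MP fish 2 (Pearson r 0.75 on log2(FPKM + 1)), whereas FP fish 2 and 3 correlated most with each other (r 0.92). Of 1925 single unigenes numbered from 88000 to 91999 in the assembly, 98.4% were at 1 FPKM or more in FP fish 1, against 0.935% to 14.5% in any other library. The limits of this range were set by hand, so the contrast is only a description. That range held 7 of the 46 members that are single unigenes (15.2%) and 3.36% of all single unigenes. Of these 7 members, 4 were highest in FP fish 1. Every member was at 1 FPKM or more in all 3 FP libraries. Of the single unigenes at that level in all 3, the range held 0.705%. Unigenes at 1000 FPKM or more in every FG library and at 5 FPKM or less in every UH, MH, UP and MP library, of which there were 35, stood at a median of 2.09% of their own fish's FG level in FP fish 1 and at 0.0229% and 0.0354% in FP fish 2 and 3. The part of these differences in the choice of members was not tested. Without FP fish 1, 2 or 3 the same rule chose 42, 68 or 61 of the 100 members. The unigenes with a score above 0 then rose from 2897 to 7900, 4246 or 4129, and all 100 members kept such a score.

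Summed over the 100 members, the level was 12089, 23522 and 16196 FPKM in FP fish 1, 2 and 3 (mean 17269 ± 5791, SD, n = 3). The 6 MP libraries summed to between 848 and 2213 FPKM (mean 1537 ± 594, SD, n = 6). The 3 FH libraries followed with 268, 944 and 1286 FPKM in fish 1, 2 and 3 (mean 833 ± 518, SD, n = 3). By group mean, male and stage I pituitaries and female hypothalami held the next highest sums. None of their libraries reached the lowest FP library. FH fish 1 was below every UG library (356 to 600 FPKM) and every MG library (343 to 527 FPKM). The UP libraries summed to between 500.2 and 1011 FPKM (mean 669 ± 183, SD, n = 6). Mean sums in the remaining groups were 442 FPKM in MG, 437 in UG, 255 in FG, 224 in MH and 184 in UH. In these bulk samples, fewer cells of a type and less RNA per cell cannot be told apart.

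**Figure D1:**
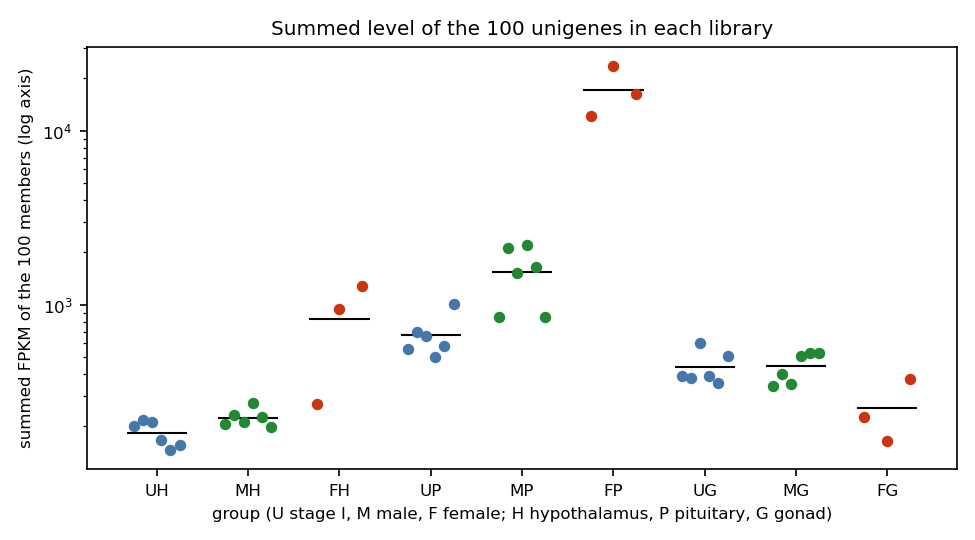
Each point is a library and each bar a group mean of the summed FPKM of the 100 members on a logarithmic axis, with stage I fish in blue, males in green and females in red. The 3 FP libraries stand between 12089 and 23522 FPKM, above the highest MP library at 2213 FPKM.

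These sums were 1.68%, 3.23% and 2.20% of all FPKM in FP fish 1, 2 and 3, and at most 0.329% in any MP library. One unigene, Unigene58411, supplied 24.7%, 60.8% and 50.8% of the member FPKM in FP fish 1, 2 and 3. The other members were far less abundant, with mean FP levels from 6.69 FPKM upwards and a median of 32.7 FPKM over the 100. The mean FP level was between 2.50 and 39.2 times the highest mean of any other group, with a median of 6.47 times. The scores ran from 1.498 to 3.96 with a median of 1.79.

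High in the female pituitary did not mean absent elsewhere. Between 60 and 84 members reached 1 FPKM in the MP libraries, 55 to 75 in the UP libraries and 44, 67 and 71 in FH fish 1, 2 and 3. Of all unigenes, 58.8% to 63.2% reached it in MP, 62.5% to 64.7% in UP and 41.4%, 41.8% and 41.1% in FH. The counts in UP and in FH fish 1 thus lay around these shares. Only 6 members stayed under a mean of 1 FPKM in all other groups, and 9 reached 1 FPKM in every one of the 45 libraries. No share over all unigenes stands beside the 6 and the 9. For 94 members no single library outside FP exceeded the lowest FP library. Over all 121952 unigenes, 649 had every FP library above every other library. The rule chose members on their lowest FP library, so the 94 is only a description. Among the groups other than FP, the highest on the log2 scale was MP for 39 members, FH for 30, UP for 15, FG for 7, MG for 5, UG for 3 and UH for 1. Below, the members are described by this next highest group. It divides them into 54 with another pituitary next, 30 with the female hypothalamus next and 16 with a gonad or UH next. No share over other unigenes stands beside this split, so it is only a description.

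**Figure D2:**
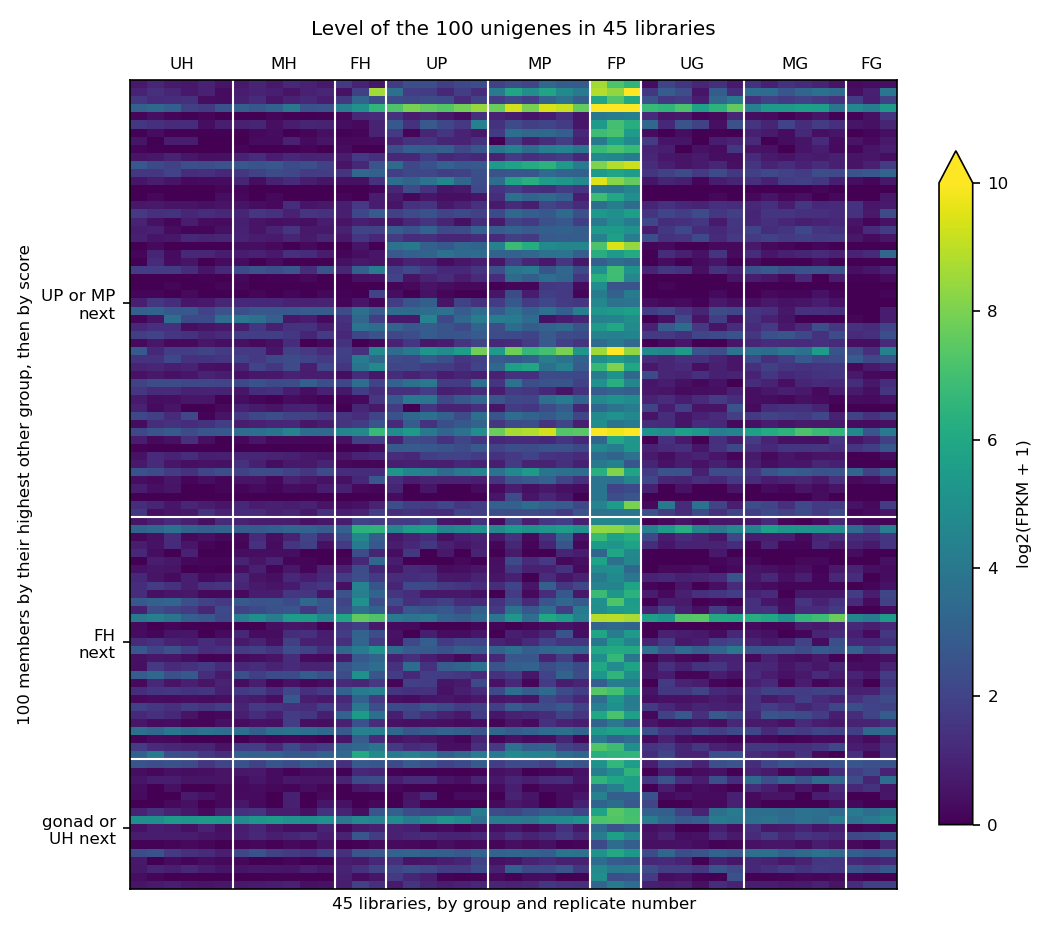
Each row is a member, grouped by the group in which it was next highest after FP and then ordered by score, and each column is 1 of the 45 libraries; colour gives log2(FPKM + 1), capped at 10. The FP columns are the brightest for nearly every member, UP and MP come next in the upper block, and the columns of FH fish 2 and 3 in the middle block.

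The top score belonged to CL18855.Contig1 (3.96), a contig of an assembled cluster of similar sequences. Its FP levels were 395, 143 and 92.7 FPKM in fish 1, 2 and 3 (mean 210.3 ± 162, SD, n = 3). The MP libraries ranged from 2.89 to 8.86 FPKM with a median of 5.20, and the UP libraries from 2.30 to 4.35 with a median of 3.89. All 12 of these lay far below the FP libraries and above all 12 UH and MH libraries, the highest of which was at 1.18 FPKM. In the females' other tissues it was at 2.25, 0.984 and 0.550 FPKM in FH and at no more than 0.330 FPKM in FG. Outside FP it was also higher in UP than UH by 1.40 ± 0.16 (log2 difference with SE, limma adjusted p = 5.454e-06) and higher in MP than MH by 1.73 ± 0.21 (limma adjusted p = 7.481e-06).

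By far the most abundant member, with the fourth score of 3.01, was Unigene58411. It stood at 2987, 14311 and 8225 FPKM in FP fish 1, 2 and 3 (mean 8508 ± 5668, SD, n = 3). In MP it ranged from 191 to 684 FPKM with a median of 407, and in UP from 148 to 349 with a median of 209. Every FP library exceeded every male and stage I pituitary, and every one of these exceeded all hypothalamus libraries, which held at most 95.2 FPKM (FH fish 3). UP was above UH by 5.15 ± 0.29 on the log2 scale (limma adjusted p = 3.587e-09) and MP above MH by 5.56 ± 0.35 (limma adjusted p = 7.414e-09), the highest difference among members called in each of these comparisons. It was also present in the gonads, at 52.2 to 195 FPKM in UG (median 99.2), 13.5 to 49.1 in MG (median 40.4) and 23.6, 17.8 and 40.2 in FG fish 1, 2 and 3.

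The second score (3.41) was that of CL13983.Contig2, at 462, 324 and 1509 FPKM in FP fish 1, 2 and 3. Its hypothalamus levels in the same females were 0.421, 2.74 and 395 FPKM, and its ovary levels 0.331, 0.851 and 14.3 FPKM. Fish 3 was thus the highest of the females in all 3 tissues, and its hypothalamus held more of this unigene than the pituitary of fish 2, by 1.22 times. Since the rule took the mean of log2 values, this single library did not stop the unigene from ranking second. MP ranged from 16.1 to 57.8 FPKM with a median of 27.7, and UP from 1.14 to 11.9 with a median of 2.48. The MP and UP libraries did not overlap, and MP was above UP by 3.02 ± 0.42 on the log2 scale (limma adjusted p = 0.0002019).

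Unigene50032 (score 3.28) was at 58.6, 156 and 66.1 FPKM in FP fish 1, 2 and 3. Its highest library elsewhere was UG at 17.0 FPKM, and MP ranged from 2.45 to 12.3 FPKM with a median of 5.29. Unigene9803 (2.86) stood at 116, 137 and 45.5 FPKM in FP, with MP from 1.15 to 11.1 FPKM (median 8.06). It was hardly seen in UP (0.106 to 2.29 FPKM, median 1.02), and MP was above UP by 1.67 ± 0.41 on the log2 scale (limma adjusted p = 0.006394). Unigene38869, the last of the 10 highest scores, was even among the FP fish at 105, 138 and 108 FPKM, followed by MP at 10.6 to 21.2 FPKM (median 16.3) and UP at 3.47 to 7.11 (median 6.05). Its levels in all 15 hypothalamus libraries were at or below 0.265 FPKM, so the 3 pituitary groups stood in the order FP, MP, UP without overlap and above every hypothalamus.

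CL17782.Contig1, Unigene45822 and Unigene82165 had UP as the next group. CL17782.Contig1 stood at 14.1, 17.1 and 18.6 FPKM in FP fish 1, 2 and 3 and at no more than 1.88 FPKM in any other library. Unigene45822 was at 42.01, 129 and 74.7 FPKM in FP and at 1.66 to 20.1 FPKM in UP (median 4.63). Unigene82165 was at 15.6, 49.7 and 26.2 FPKM in FP and at no more than 2.58 FPKM elsewhere. All FP libraries of these unigenes lay above all other libraries. CL9236.Contig3, ranked sixth, was the most even of them at 22.2, 22.5 and 21.2 FPKM in FP (mean 21.9 ± 0.690, SD, n = 3) and had FH next at 0.723, 3.13 and 2.53 FPKM.

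Several abundant members scored lower because males also held them. CL15727.Contig1 was at 2547, 867 and 1065 FPKM in FP fish 1, 2 and 3 and at 160.1 to 642 FPKM in MP (median 308). UP held only 8.49 to 42.6 FPKM (median 21.6), which separated the pituitaries of stage II fish of both sexes from those of stage I fish without overlap. MP was above UP by 3.84 ± 0.41 on the log2 scale (limma adjusted p = 3.768e-05), the highest such difference among members. CL3014.Contig2 behaved likewise, at 269, 464 and 604 FPKM in FP, 16.5 to 86.4 in MP (median 47.2) and 3.38 to 9.95 in UP (median 5.71). Its MP libraries exceeded UP by 2.76 ± 0.33 on the log2 scale (limma adjusted p = 7.562e-05) and MG fell below MP by 4.41 ± 0.30 (limma adjusted p = 1.589e-08).

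CL1674.Contig1 stood at 720.2, 295 and 194 FPKM in FP fish 1, 2 and 3, at 10.96 to 79.1 in MP (median 41.6) and at 4.15 to 23.1 in UP (median 9.91). Unigene32905 was at 147, 699.9 and 339 FPKM in FP, at 19.4 to 113 in MP (median 24.7) and at 5.66 to 15.3 in UP (median 8.63). No hypothalamus or gonad library held more than 2.67 FPKM of CL1674.Contig1 or 0.625 FPKM of Unigene32905, so both stood higher in every pituitary library than in any library of the other tissues. UP exceeded UH by 3.30 ± 0.19 on the log2 scale for Unigene32905 (limma adjusted p = 5.33e-09). In Unigene31658 the spread was wider, with 375, 1003 and 333 FPKM in FP, 37.1 to 252 in MP (median 115) and 10.4 to 228 in UP (median 31.8). Its MP level was above MH by 5.24 ± 0.43 on the log2 scale (limma adjusted p = 1.152e-07), while its difference between UP and MP was 1.52 ± 0.65 (limma adjusted p = 0.0811).

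**Figure D3:**
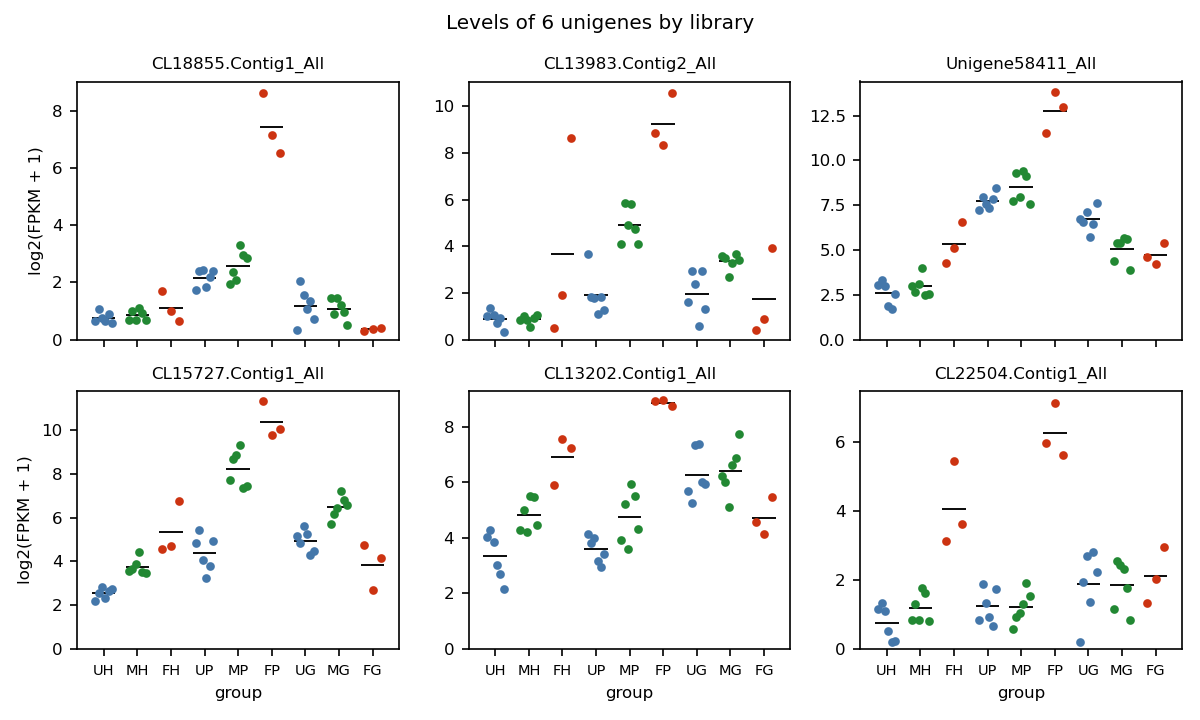
Points are libraries on the log2(FPKM + 1) scale and bars are group means, for 6 members, with stage I fish in blue, males in green and females in red. FP is highest in all 6 panels; MP and UP follow in CL18855.Contig1 and Unigene58411, MP without UP in CL15727.Contig1, a single FH library in CL13983.Contig2 and all FH libraries in CL22504.Contig1.

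The comparisons that involve no FP library asked whether the members also differed between tissues of the other fish and between the other groups of a tissue. They were fitted with limma on every unigene that reached 1 FPKM in at least the number of libraries of the smaller group, and called at an adjusted p under 0.05. The rule had held the mean of each of these groups below the FP level, so members high in them were left out and the counts are read only as a description of the members. Members that failed the filter on low values count as not called, whereas the shares over all unigenes are of those tested, so the count over 100 and the share are not on the same base. Fits without the filter, in which 98 to 100 members enter, are therefore given beside each. There were 15 members that passed it in no comparison. Between 57 and 70 members passed it in each.

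In stage I fish, 39 of the 100 members were higher in the pituitary than in the hypothalamus and 3 were lower, where 58 members passed the filter. Over all 80642 unigenes tested, 28.1% were higher in UP and 18.2% lower. In males, MP exceeded MH for 45 of the 100 and was below it for 1, where 62 passed, against 21.7% higher and 27.5% lower over all unigenes tested. When the tissue labels of male fish 4 were followed in place of its codes, no unigene of the 80450 tested was called between MH and MP (0 higher and 0 lower), so no member was either, and with this fish left out 44 were higher and 1 was lower. Without the filter 53 of the 100 were higher in UP, beside 22.2% of all unigenes, and 60 of the 100 were higher in MP than MH, beside 18.2%. The median log2 difference over all 100 members was then 0.52 for UP against UH and 0.81 for MP against MH, beside 0.10 and -0.001 over all unigenes. After median-of-ratios scaling the shares over all unigenes for UP against UH turned to 17.3% higher and 26.4% lower, with 30 members higher and 4 lower.

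The members called in the opposite direction were few. CL21477.Contig1, at 141, 157 and 134 FPKM in FP, was lower in UP (11.7 to 36.0 FPKM, median 25.6) than in UH (30.6 to 41.4, median 38.9), by -0.68 ± 0.22 on the log2 scale (limma adjusted p = 0.02058). In males it was again lower in MP than MH, by -0.59 ± 0.17 (limma adjusted p = 0.01066). Its UH and UP libraries overlapped, as did those of MH and MP. Unigene19 was lower in UP (1.27 to 3.99 FPKM, median 1.79) than in UH (2.18 to 8.60, median 5.10), by -0.92 ± 0.28 on the log2 scale (limma adjusted p = 0.01526). The UH and UP ranges of this unigene overlapped. It stood at 31.5, 149 and 44.9 FPKM in FP, and each female held more of it in FP than in FH. The rule chose members for FP levels above the other groups, so the order in the females is only a description.

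Against the gonads, more members were called lower in the gonad than higher. In stage I fish the shares over all unigenes leaned the same way. In stage I fish 31 of the 100 were lower in UG than in UP and 2 were higher, where 63 passed the filter, beside 34.3% lower and 11.3% higher over all unigenes tested. In males 43 were lower in MG than in MP and 3 were higher, where 64 passed, beside 20.2% lower and 41.3% higher over all unigenes tested. Without the filter 41 of the 100 were lower in UG, beside 28.9% of all unigenes, and 57 were lower in MG, beside 18.8%. After median-of-ratios scaling the shares over all unigenes for MG against MP turned to 31.6% lower and 27.6% higher, with 50 members lower and 3 higher. The lowest differences were those of Unigene32905 (-3.19 ± 0.22, limma adjusted p = 1.304e-08) and CL1674.Contig1 (-2.76 ± 0.31, limma adjusted p = 2.468e-06) in stage I fish. In males they were those of Unigene32905 (-5.01 ± 0.37, limma adjusted p = 3.735e-08) and CL3014.Contig2.

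CL13202.Contig1 and CL15101.Contig2 were called higher in the gonad in both comparisons, and the remaining one in males was Unigene2184 (1.15 ± 0.15, limma adjusted p = 7.824e-06). CL13202.Contig1, with FP levels of 484, 492 and 429 FPKM, was at 37.3 to 167 FPKM in UG (median 62.5) and 6.79 to 16.8 in UP (median 11.5), by 2.69 ± 0.36 on the log2 scale (limma adjusted p = 1.64e-05). Its MG libraries held 33.2 to 210.3 FPKM (median 85.2) and overlapped those of MP at 11.2 to 61.1 (median 27.6), with a difference of 1.67 ± 0.45 (limma adjusted p = 0.004873). CL15101.Contig2, at 91.8, 58.6 and 46.6 FPKM in FP, was at 4.45 to 10.6 FPKM in MG (median 8.48) and 0.481 to 1.45 in MP (median 0.954). These did not overlap, and the difference was 2.13 ± 0.22 (limma adjusted p = 8.981e-07). In stage I fish its gonad excess was 0.82 ± 0.29 (limma adjusted p = 0.02999).

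Between the pituitaries of stage I fish and males, 23 of the 100 members were higher in MP and 1 was lower, where 70 passed the filter. Over all 78482 unigenes tested the shares were 7.26% higher and 29.6% lower, and without the filter 27 of the 100 members were higher in MP, beside 6.36%. After median-of-ratios scaling 28 members were higher and 0 lower, beside 12.7% and 16.5%. With the tissues of male fish 4 exchanged, 12 members were higher and 0 lower, beside 5.07% and 25.5%. Unigene64379 was the 1 member lower in MP (3.13 to 4.68 FPKM, median 4.12) than in UP (4.07 to 6.37, median 5.79), by -0.38 ± 0.13 on the log2 scale (limma adjusted p = 0.03557), and the ranges overlapped. The highest library outside FP was MP fish 2, 4 and 5 for 10, 11 and 11 members. It was MP fish 3 and 6 for 3 and 4 members, and MP fish 1 for none. These counts have no share over all unigenes beside them, so they are only a description.

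**Figure D4:**
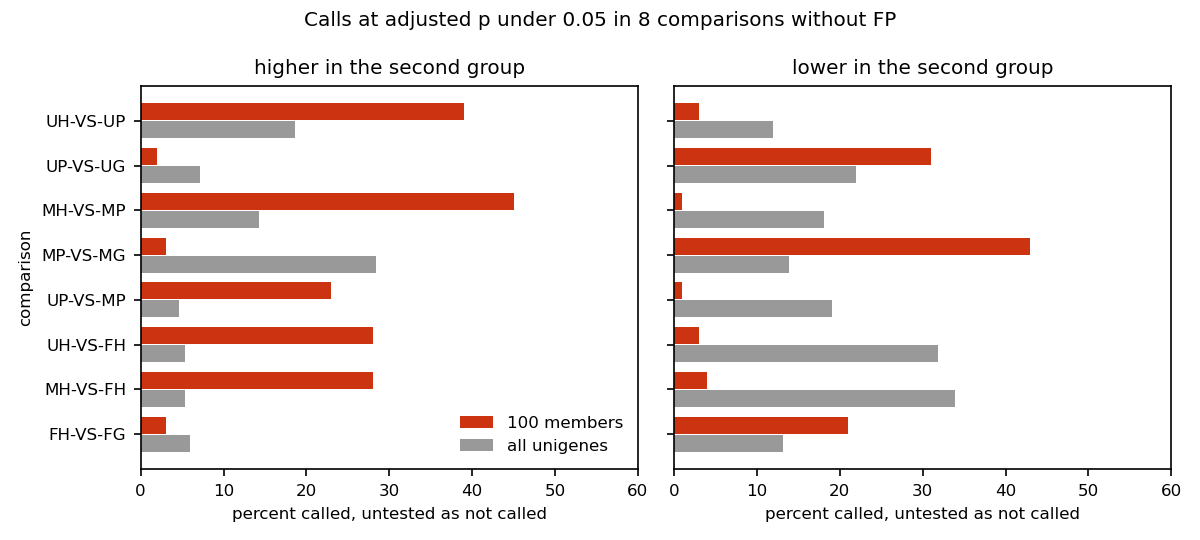
Bars give the percent of the 100 members (red) and of all 121952 unigenes (grey) called higher (left) or lower (right) in the second group of each comparison, where unigenes that failed the filter count as not called in both. Among the members, 45 are higher in MP than MH and 23 higher in MP than UP, against 14.3% and 4.67% of the table.

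The female hypothalamus was compared with the hypothalami of the other fish. Compared with UH, 28 of the 100 members were higher in FH and 3 lower, where 58 passed the filter, beside 7.83% higher and 47.1% lower over all unigenes tested. Compared with MH, 28 were higher in FH and 4 lower, where 61 passed, beside 7.90% higher and 49.8% lower. Without the filter 37 and 36 members were higher in FH, beside 6.38% and 6.47% of all unigenes. The comparisons share the FH libraries. After scaling the libraries by median-of-ratios factors the counts were 43 higher and 0 lower against UH and 45 higher and 1 lower against MH, with 16.6% and 16.6% of all unigenes higher. With FH fish 1 as the only FH library, 13 and 11 members were higher against UH and MH, beside 4.89% and 5.95% of all unigenes, and with scaling added 35 and 29, beside 15.3% and 19.0%. Without FH fish 1 there were 47 and 49 higher, beside 14% and 15.7%. Leaving out FH fish 2 left 17 and 20 higher, beside 5.08% and 5.67%. The members and all unigenes thus moved in the same direction with the libraries used.

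CL22504.Contig1 was among the members with the highest such difference. It stood at 62.1, 139.6 and 48.9 FPKM in FP and at 7.82, 42.8 and 11.3 FPKM in FH fish 1, 2 and 3. UH held at most 1.53 FPKM and MH at most 2.39, so every female hypothalamus exceeded every other one. The difference was 3.31 ± 0.47 against UH (log2, limma adjusted p = 0.000131) and 2.87 ± 0.44 against MH (limma adjusted p = 0.00021). UP and MP held at most 2.72 and 2.81 FPKM, so in stage I fish and males this unigene was low in both tissues.

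CL13202.Contig1 was at 58.6, 188 and 151 FPKM in FH, at 3.49 to 18.7 in UH (median 10.3) and at 17.7 to 44.6 in MH (median 26.0). FH lay above both groups in every library, by 3.56 ± 0.52 over UH (log2, limma adjusted p = 0.000161) and by 2.08 ± 0.43 over MH (limma adjusted p = 0.001524). Unigene23523, at 113, 37.9 and 82.0 FPKM in FP, was at 4.82, 18.5 and 8.25 FPKM in FH and at 0.179 to 2.00 in MH (median 0.699). Its excess over MH was 2.44 ± 0.39 on the log2 scale (limma adjusted p = 0.0002985). CL14766.Contig2 was at 332, 313 and 231 FPKM in FP and at 7.48, 85.7 and 89.1 FPKM in FH. Only FH fish 2 and 3 of this unigene stood above MH (6.21 to 8.52 FPKM, median 6.78), and its difference was 2.33 ± 0.61 (limma adjusted p = 0.006218).

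A few members went the other way, as did 47.1% and 49.8% of all unigenes tested against UH and MH. After median-of-ratios scaling, 0 members were called lower in FH than in UH and 1 lower than in MH. The calls against UH given here thus did not hold under scaling. Unigene47863, at 77.8, 275 and 56.2 FPKM in FP and 9.63 to 37.8 in UP (median 19.9), was at 1.48, 1.497 and 1.28 FPKM in FH. UH ranged from 1.79 to 4.66 FPKM and MH from 2.10 to 3.98, all above FH, with differences of -0.81 ± 0.26 (limma adjusted p = 0.02071) and -0.81 ± 0.21 (limma adjusted p = 0.0062). CL21477.Contig1 was lower in FH (14.6, 25.1 and 20.7 FPKM) than in UH by -0.87 ± 0.26 (limma adjusted p = 0.0154). CL3014.Contig2 was lower in FH (0.430, 1.17 and 5.09 FPKM) than in MH (2.92 to 5.79 FPKM, median 4.64) by -1.03 ± 0.38 (limma adjusted p = 0.03616), although FH fish 3 lay within the MH range.

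Within the females, levels in FH differed by fish, for members and for other unigenes. The 30 members with FH next were highest in FH fish 2 for 22 and in FH fish 3 for 8, and for none in FH fish 1. No share over all unigenes stands beside this split, so it is only a description. Their median level in FH was 8.87%, 28.0% and 16.2% of the FP level of the same fish in fish 1, 2 and 3. For the other 70 members these medians were 1.88%, 4.33% and 6.87%, and since the members were divided by their FH level, only the differences between fish are read here. Both HiSeq 4000 hypothalami were above FH fish 1 for 75 of the 100 members and below it for 7, beside 69.3% and 11.7% of the 40349 other unigenes at 1 FPKM or more in all FP libraries. The members were thus near the shares of the other unigenes. Fish and platform change together here and cannot be told apart. The paper also saw differences among the female samples, most in the hypothalamus, and proposes that different families are a possible reason. Family was not tested here.

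**Figure D5:**
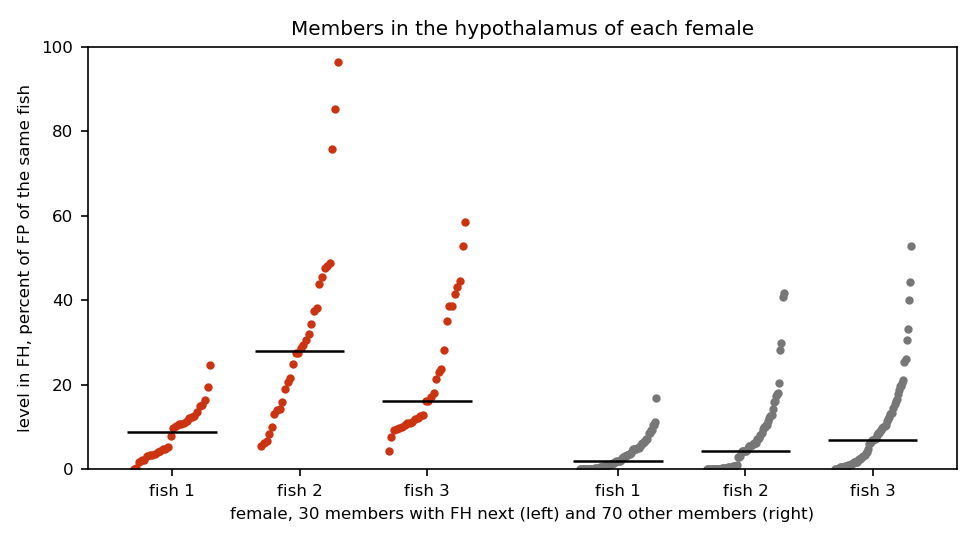
Each point is a member, plotted as its FH level in percent of the FP level of the same female and sorted within each column, with bars at the medians; the 30 members with FH next are red and the other 70 grey. The medians are 8.87%, 28.0% and 16.2% on the left and 1.88%, 4.33% and 6.87% on the right.

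As a gauge of pituitary RNA in the hypothalamus libraries, 16 unigenes that are no members, chosen after the data were seen, were at 20 FPKM or more in every UP and MP library and at least 50 times the highest UH or MH library. In FH they stood at medians of 0.0613%, 0.145% and 0.0330% of the FP level in fish 1, 2 and 3, with highest values of 23.8%, 7.57% and 3.15%. These unigenes were chosen for low hypothalamus levels and the members with FH next for high ones, so the sets are not compared. In the other direction, 6 unigenes chosen by the same limits for UH and MH over UP and MP stood at medians of 0.331%, 3.64% and 4.92% of the FH level in FP fish 1, 2 and 3. No names are paired with these unigenes, and cell types shared by both tissues were not tested.

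Between the hypothalamus and the ovary of the females, 21 of the 100 members were lower in FG and 3 were higher, where 57 passed the filter, beside 33.5% lower and 15.4% higher over all unigenes tested. After median-of-ratios scaling the counts were 20 lower and 8 higher, beside 27.3% and 24.1%. Without the filter 10 were lower and 2 higher, beside 11.9% and 4.65%. Without FH fish 2 there were 9 lower and 2 higher, beside 25.1% and 9.82% of all unigenes. Without FG fish 2 there were 8 lower and 3 higher, beside 17.5% and 10.7%, and without FH fish 1 32 lower and 3 higher, beside 37.6% and 12.1%. Members were at medians of 2.02%, 0.696% and 3.32% of the same fish's FP level in FG fish 1, 2 and 3 and at no more than 32.1% in any. There were 8 members listed at 0 in all 3 FG libraries, a count without a share over all unigenes beside it. Low levels in FG were general. Of all unigenes, 30.8%, 21.9% and 31.6% were at 1 FPKM or more in FG fish 1, 2 and 3, against 56.5%, 42.4% and 43.6% in FP.

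Unigene49100 showed the lowest difference between FH and FG. It stood at 76.6, 90.3 and 94.8 FPKM in FP, 9.44, 68.6 and 26.7 in FH and 1.57, 0.164 and 1.42 in FG, with a difference of -3.81 ± 0.67 on the log2 scale (limma adjusted p = 0.0003682). CL6206.Contig2 followed at 28.6, 40.9 and 47.7 FPKM in FP, 3.86, 12.1 and 7.72 in FH and 0, 0 and 0.263 in FG (-2.93 ± 0.48, limma adjusted p = 0.0002481). In both unigenes every ovary lay below every hypothalamus. Unigene2184 was higher in FG (17.0, 11.4 and 15.4 FPKM) than in FH (0.947, 0.309 and 5.24) by 2.62 ± 0.61 (limma adjusted p = 0.002396), without overlap. It stood at 55.4, 170.3 and 128 FPKM in FP, and MG, at 9.69 to 12.2 FPKM (median 11.2), was close to the ovary level. Unigene64379 was also higher in FG (1.81, 2.59 and 5.38 FPKM) than in FH (0, 0.0530 and 0.232) by 1.88 ± 0.35 (limma adjusted p = 0.0005354), and was at 24.5, 17.8 and 38.5 FPKM in FP.

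The spread of the members among the 3 FP libraries is given here as a description. The ratio of the highest to the lowest FP library had a median of 2.28 over the members, from 1.06 to 12.1, beside a median of 2.07 over the 40349 other unigenes at 1 FPKM or more in all FP libraries. It was within 2-fold for 43 members and over 5-fold for 8, counts without a share over the other unigenes beside them. Fish 2 was highest for 53 members, fish 1 for 26 and fish 3 for 21, whereas among the other unigenes these shares were 25.0%, 35.7% and 39.3%. Fish 1 was lowest for 39 members, fish 3 for 37 and fish 2 for 24, beside 42.2%, 24.2% and 33.5%. The rule uses the lowest FP library, so it bears on the ratio and on these shares. The other unigenes were not matched to the members in level.

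In 6 members a single library of another group exceeded the lowest FP library. Beside CL13983.Contig2, the highest excesses were those of Unigene89412, CL23541.Contig1 and Unigene7499. Unigene89412, which lies in the range of assembly numbers described above, was at 28.6, 4.34 and 4.81 FPKM in FP. In UG, 1 library held 4.62 FPKM of it. CL23541.Contig1 was at 19.7, 21.9 and 29.9 FPKM in FP, and 1 UP library held 20.7 FPKM, in a range of 0.601 to 20.7 over UP. Unigene7499 was at 37.1, 91.6 and 30.5 FPKM in FP and at 3.92, 31.4 and 5.18 in FH, so FH fish 2 exceeded FP fish 3. Unigene19 and Unigene23429, where FH fish 2 exceeded FP fish 1, made up the 6.

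Contigs of a cluster are similar assembled sequences, such as transcript forms, alleles or close gene copies, which may share reads, so their values are not independent. The members comprised 54 contigs from 44 clusters, and 53.0% of all unigenes are such contigs. There were 8 clusters with more than 1 member, and these held 18 members. The 134 other contigs of the members' clusters had a median score of 0.27, and 77 of them (57.5%) scored above 0, so members were often joined by contigs that were lower in the same ranking.

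CL7688 held the most members, 4 of its 11 contigs. Its Contig3, Contig8, Contig4 and Contig11 ranked between 24 and 72, with mean FP levels of 12.9, 19.2, 29.1 and 19.6 FPKM. Each was highest in FP fish 2, at 17.2, 27.0, 49.2 and 33.6 FPKM, and had MP next, with medians of 1.43, 2.81, 4.34 and 2.65 FPKM. The other 7 contigs of this cluster scored from -0.09 to 0.71. In CL17782, Contig1 and Contig3 were members, and Contig3 was at 40.9, 42.9 and 32.3 FPKM in FP, 6.34 to 7.92 in MP (median 6.88) and 3.59 to 7.91 in UP (median 5.64). All of these stood above its highest hypothalamus library, FH fish 2 at 3.17 FPKM.

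CL3014 differed between its contigs. Contig2 was next highest in MP, whereas Contig5 was at 55.1, 11.8 and 22.7 FPKM in FP and at 0.103, 1.18 and 9.44 in FH. The FP fish with the highest level was fish 3 for Contig2 and fish 1 for Contig5. In CL14181, Contig1 was at 39.9, 56.0 and 43.8 FPKM in FP and Contig3 at 8.55, 16.3 and 11.1. Contig1 had MP next (4.83 to 10.4 FPKM, median 6.48) and Contig3 had FG next (1.51, 2.69 and 2.88 FPKM).

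Over the 42 libraries that are not FP, the log2 levels of pairs of members were mostly only loosely related, with a median Pearson r of 0.28 over 4950 pairs. These correlations are descriptions, since the libraries share fish, tissue and platform. In 13 pairs r was 0.9 or more. The highest were Unigene9803 with Unigene56267 (r 0.96) and with Unigene4895 (r 0.95), followed by CL1674.Contig1 with Unigene32905 (r 0.95), none of which share a cluster. The unigenes outside the set most like CL18855.Contig1 were CL13833.Contig1 (r 0.90), CL552.Contig2 (r 0.89) and CL7430.Contig5 (r 0.89). Their mean FP levels of 2.75, 5.78 and 3.48 FPKM stood beside MP means of 2.12, 8.85 and 3.90 FPKM, so they followed the top member in the other groups without its excess in FP.

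The edge of the set was not a gap. Just inside it were CL2927.Contig2 at 13.7, 4.19 and 5.46 FPKM in FP fish 1, 2 and 3 (score 1.51), CL22034.Contig1 at 21.2, 45.5 and 256 (1.503) and Unigene66378 at 12.3, 13.0 and 13.5 (1.498). Just outside it were Unigene21706 at 13.5, 32.2 and 11.1 FPKM (1.49), CL2097.Contig2 at 18.8, 29.7 and 21.6 (1.49) and CL16468.Contig3 at 46.4, 31.7 and 23.7 (1.49). CL2927.Contig2 was listed at 0 in every UH, MH, FH, UG and FG library, while Unigene66378 reached 1.36 FPKM or more in every UG library. The scores of both thus sat close together while their levels outside FP differed.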

How the data were processed

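The authors sequenced stranded mRNA libraries, filtered reads with SOAPnuke, assembled all 45 libraries with Trinity, clustered contigs with TGICL, dropped short low unigenes, mapped reads with SOAP2 and computed FPKM with RSEM. FPKM of 121952 unigenes was deposited without read counts, so the depth behind each value is unknown and no counting interval can be given. FPKM is a share of each library, so a rise of abundant unigenes lowers others. All sample columns were used (0 left out), and no 2 columns were identical. None of the 78555 genes of the RefSeq table (assembly CSRI_AciSin_1.0) has an identifier that matches a unigene, so no names, sequences or marker lists by name were used.

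The score used log2(FPKM + 1). The authors' test, NOISeq, was not run, and the comparisons used limma 3.58.1 (lmFit, eBayes with trend; R 4.3.3) on log2(FPKM + 1), a scale that understates changes of low unigenes, with Benjamini-Hochberg adjustment over all unigenes tested and a threshold of 0.05. Unigenes needed 1 FPKM or more in as many compared libraries as the smaller group holds. Each comparison was fitted on its 2 groups without a block. Levels, sums and correlations were computed with Python 3.11.15 (pandas 2.3.3, NumPy 2.4.6). The limma fits were also run on simulated data with known changes. For UP against UH, 58.4% of changes of 1 on the log2 scale were called and 97.8% of changes of 3. For FH against MH these shares were 40.8% and 93.9%. The share called at the spread of the measured FH libraries was not tested. The members and lists were chosen with earlier results of these data known.

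The 3 tissues of 1 fish share a number, so the tissue comparisons are paired by fish. Deviations from the group means matched the same fish best for 6 of 6 males between hypothalamus and pituitary, 6 of 6 between pituitary and gonad, 3 of 3 females in both and 2 of 3 between hypothalamus and gonad. In stage I fish this held for 5 of 6 between hypothalamus and pituitary and 3 of 6 between pituitary and gonad. Between hypothalamus and gonad it held for only 2 of 6 stage I fish and for 6 of 6 males. Each fish is a separate animal.

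Named are the 10 highest scores, the 10 highest FP means, members of up to 4 clusters with more than 1 member, the 2 highest and 2 lowest called differences per comparison, the 3 unigenes on each side of the edge, the 4 members that other libraries exceeded most, and 3 unigenes most like the top member. Unigene23429, Unigene56267 and Unigene4895 were named after their values were seen. Alternatives were median-of-ratios scaling, omission of the filter, a pseudocount of 0.1, 1 fit over all groups, a change of 1 or more on the log2 scale, a replicate block, each library left out, HiSeq 2000 libraries only, the exchange or omission of male fish 4, and, for the members, another reference or the mean of FP.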

Additional observations from a re-analysis of the deposited data

Results flagged for a closer look

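In groups of 6 fish, 44 sets of values were examined: the summed level of the members, the number of members at 1 FPKM or more, and the level of each of the 10 highest-scoring members where its group mean was at least 1 FPKM. In 4 sets there was a single library far from the others for the range of its group. Chance gives about 1 in 20 for independent, normally distributed values. FPKM was not put on a log scale here and the sets share libraries, so the count is only a description. Unigene58411 was at 14.7 FPKM in MH fish 4, and the other MH libraries held 4.70 to 7.61 FPKM. The tissue labels of this fish conflict with its codes, and across all unigenes its MH library correlated most with MH fish 2 (Pearson r 0.935). CL13983.Contig2 was at 11.9 FPKM in UP fish 1, against 1.14 to 2.55 in the other UP libraries. Unigene45822 was at 20.1 FPKM in UP fish 6, against 1.66 to 6.01. Unigene50032 was low in UP fish 5, at 1.28 FPKM against 2.96 to 3.92. Groups of 3 fish were not examined in this way.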

How the results depend on the processing

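Of the 100 members, HiSeq 2000 libraries only (FP fish 1) kept 20, and leaving out 1 FP library kept between 42 (without fish 1) and 68 (without fish 2), with 61 without fish 3. The other rules kept 67 to 95: a pseudocount of 0.1 kept 67, median-of-ratios scaling 77, the highest single other library as reference 68, the mean of FP 71, and the exchange or omission of male fish 4 92 or 95. Members called in either direction moved by more than 1.5 times in the following cases. A change of 1 or more on the log2 scale left 27 for UP against UH. With the tissues of male fish 4 exchanged, 0 were called for MP against MH, as were 0 of all unigenes (limma; 28 members at an unadjusted p under 0.05), 12 for MP against UP and 20 for FH against MH. HiSeq 2000 libraries only left 16 for FH against UH and 15 for FH against MH, where the lone FH library is assumed to vary like the other group. With scaling added, chosen after the data were seen, these were 35 higher and 1 lower, and 29 higher and 2 lower. For FG against FH, no filter gave 12 and 1 fit over 9 groups 39. This comparison could not be run on HiSeq 2000 libraries only, with 1 fish per tissue. Leaving out each library gave 40 to 44 members for UP against UH, 30 to 34 for UG against UP, 46 to 54 for MP against MH, 46 to 53 for MG against MP, 20 to 25 for MP against UP, 19 (without FH fish 2) to 49 (without FH fish 1) for FH against UH, 23 to 52 for FH against MH with the same libraries, and 11 (without FH fish 2 or FG fish 2) to 35 (without FH fish 1) for FG against FH. The cause of these changes was not tested.

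A replicate block for the fish, in the paired tissue comparisons, gave 48 members for UP against UH, 35 for UG against UP, 50 for MP against MH, 49 for MG against MP and 29 for FG against FH. Between fish of different groups, where a number is only a number, the replicate block gave 20, 23 and 28 for MP against UP, FH against UH and FH against MH. No total moved by over 1.5 times. Of 30 named differences under 505 alternatives, 0 changed direction and 45 no longer passed the threshold, 4 of these under the block. Scaling moved the median log2 difference of all unigenes from 0.18 to -0.05 for UP against UH, -0.33 to -0.13 for UG against UP, 0.27 to -0.05 for MG against MP, -0.23 to -0.05 for MP against UP, -0.66 to -0.34 for FH against UH, -0.65 to -0.32 for FH against MH and -0.44 to -0.05 for FG against FH.

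With 3 females, no read counts and no gene names, depth per value is unknown and the members' identity is not given.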
